A study of Mus musculus with 18 samples.

Results

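Liver X receptor (LXR) signalling was followed through 6 genes in mouse macrophages: the receptor genes Nr1h2 and Nr1h3, their partner Rxra, and the target genes Mylip, Pltp and Apoe. The genes were chosen by name, as LXR pathway genes other than the cholesterol exporters, from 24059 gene symbols, and every count row carrying a symbol was summed. All 6 had rows. The 3 targets were well covered and were tested in all comparisons, whereas the receptor genes had almost no countable reads and could hardly be measured.

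LXR alpha (Nr1h3) and LXR beta (Nr1h2) are nuclear receptors that sit on DNA as dimers with a retinoid X receptor such as RXR alpha (Rxra), and oxidised cholesterol derivatives switch them on. In macrophages they raise genes that move cholesterol out of the cell and limit its uptake. MYLIP, also called IDOL, is a ubiquitin ligase that sends the LDL receptor to degradation. PLTP transfers phospholipids between lipoproteins and remodels HDL. APOE is the lipid-carrying apolipoprotein that macrophages secrete.

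The cells were macrophages grown from bone marrow of C57BL/6J mice, with no engineered allele named in the labels, grown for 7 days in medium with 20% L929-conditioned medium and treated from day 8 in 4%. One count table held cells given lipopolysaccharide (LPS) and untreated cells. The other held 4 groups that all received LPS: cholesterol loading with POPC/cholesterol liposomes followed by reconstituted HDL (rHDL), loading alone, rHDL alone, and LPS with no pretreatment. rHDL was the preparation CSL111, with 1 APOA1 per 150 soybean phosphatidylcholine, given for 20 h and washed off before LPS. Each of the 6 groups had 3 libraries of poly(A)-selected RNA. The sources used here give neither the LPS dose and duration nor the liposome dose, and do not say whether libraries came from separate animals or cultures. The p-values therefore measure the spread between these libraries, which may be technical. No group had rHDL or loading without LPS, so an effect present before LPS and an altered response to LPS cannot be told apart.

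Depth was 11450243 to 16835472 counts per library for LPS and untreated cells, and 9464916 to 15607889 for the 4 groups of the second table. The label was checked against macrophage markers, whose 7 measured genes summed to 26400 to 31900 CPM with LPS and 24000 to 29000 CPM in untreated cells. In the second table they summed to 14900 to 18800 CPM after loading and rHDL, 17200 to 18800 CPM after loading, 9360 to 11700 CPM after rHDL and 17800 to 19500 CPM with LPS alone. CPM here is a read count relative to library size after TMM scaling, which corrects for differences in library composition. Itgam, which keeps almost no countable base, was at 0 in all groups. Neutrophil, dendritic and lymphoid marker lists each summed to at most 7.56, 2.58 and 0.419 CPM in any library, and S100a9 was at 0 throughout, as was Clec9a, which has no countable base. Stromal and endothelial markers reached 17.6 CPM in 1 loading library and at most 3.7 CPM in every other group. Tables were scaled and tested apart.

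The stretch before each target's start site is shown because the 3 genes fell together after rHDL, and these are the letters in which shared motifs were looked for. The windows are the 250 bases upstream of the RefSeq start site (GRCm38.p6, the same assembly as mm10), at chr13:45389492-45389741 on the plus strand for Mylip and, on the minus strand, at chr2:164857709-164857958 for Pltp and chr7:19699189-19699438 for Apoe. Each runs 5′ to 3′ along the gene's strand, and the Apoe window belongs to the nearest of 3 RefSeq starts, 22 bases upstream of the deposited row. Capitals mark a TATAAA in Mylip.
Mylip: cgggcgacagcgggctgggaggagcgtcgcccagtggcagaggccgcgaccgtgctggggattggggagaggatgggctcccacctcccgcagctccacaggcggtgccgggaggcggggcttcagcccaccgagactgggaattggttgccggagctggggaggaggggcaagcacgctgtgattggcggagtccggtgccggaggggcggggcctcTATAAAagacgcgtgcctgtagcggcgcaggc
Pltp: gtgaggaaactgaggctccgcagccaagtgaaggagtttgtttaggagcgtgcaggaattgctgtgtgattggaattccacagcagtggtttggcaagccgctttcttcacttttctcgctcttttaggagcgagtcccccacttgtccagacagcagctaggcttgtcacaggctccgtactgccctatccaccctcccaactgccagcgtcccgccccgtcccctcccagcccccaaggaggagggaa
Apoe: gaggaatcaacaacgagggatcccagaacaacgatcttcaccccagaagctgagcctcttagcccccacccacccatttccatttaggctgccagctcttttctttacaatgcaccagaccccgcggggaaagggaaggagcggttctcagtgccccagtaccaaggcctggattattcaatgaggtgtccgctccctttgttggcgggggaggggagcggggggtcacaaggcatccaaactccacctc
The repeat searched for is 2 copies of AGGTCA in the same direction with 4 bases between them, on either strand, scored over its 12 fixed bases. The best matches had 6 mismatches in Mylip and 5 in Pltp and in Apoe. Of 32851 promoter windows of this length 18.5% held a match with up to 3 mismatches and 2.57% one with up to 2. None of the 3 windows held either. Only these 250 bases were searched, so the search cannot say whether a repeat lies elsewhere near these genes. For comparison, the exporter gene Abca1, a textbook LXR target, holds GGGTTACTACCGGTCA with 3 mismatches in its own window. A single exact AGGTCA occurred in 14% of all windows and in none of these 3, and TATAAA occurred in the last 60 bases of 2.87% of windows. The Mylip window was rich in G and C (71.2%), against 57.6% for Pltp and 57.2% for Apoe and a median of 52.4% over all windows.

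The receptor genes came first in the pathway and last in what could be read. The deposited tables hold 1 row per annotated transcript, and a read lying in more than 1 row was not counted, so a gene with several overlapping transcripts keeps only the bases that 1 of its rows has alone. Nr1h2 (mm10 chromosome 7, 44549616 to 44553965, minus strand) has 4 rows, and 4 of the 2022 exon bases of its longest row (0.2%) were countable. It had 1 count in the 18 libraries, so no level can be given for LXR beta. This says nothing of whether the gene was expressed. For the targets the counting leaves nearly everything: all exon bases of Mylip (2983) and Apoe (1251) were countable, and 72.6% of those of Pltp, which shares 495 bases with Ctsa on the other strand.

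**Figure D1:**
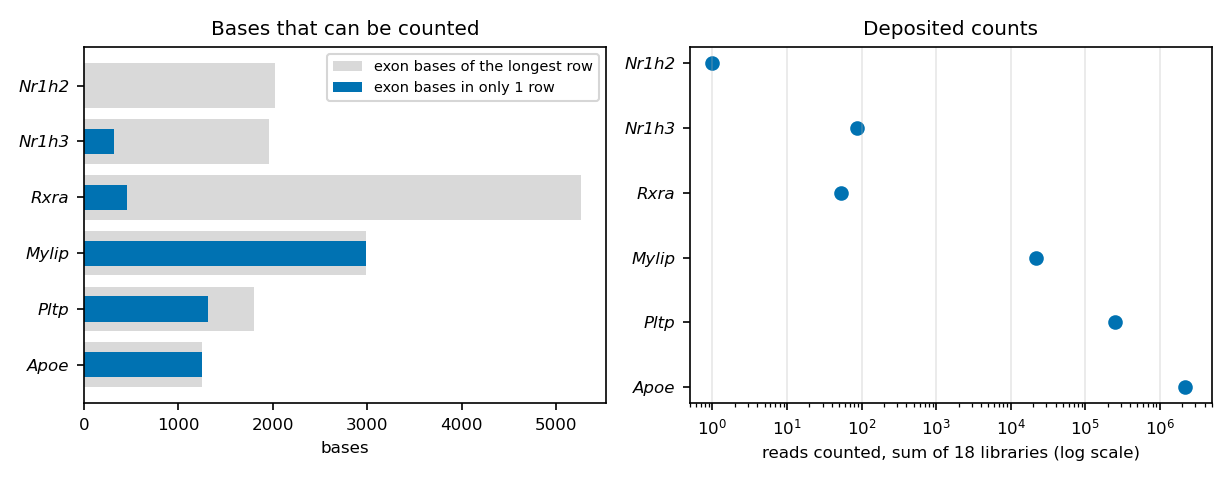
Left, exon bases of the longest annotated row of each gene (grey) and bases that lie in only 1 row and can be counted (blue); right, reads counted for the gene, summed over 18 libraries, on a log scale. The receptor genes Nr1h2, Nr1h3 and Rxra keep 0.2%, 16.1% and 8.7% of their longest row, and the targets 72.6% or more.

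Nr1h3, LXR alpha (chromosome 2, 91184061 to 91195116, minus strand), had 315 countable bases of 1955 (16.1%). It had 13, 3 and 2 counts in the LPS libraries, against 11, 9 and 13 in untreated cells. Replicate 1 of LPS reached the untreated level and the other two did not, so the groups overlapped. The edgeR quasi-likelihood test gave a log2 fold change of -0.20 ± 0.60 (SE; 95% interval -1.53 to 1.13; adjusted p = 0.773), so a difference was not detectable at this depth. The ratio of summed counts was 0.875 with TMM scaling (95% counting interval 0.464 to 1.599) and 0.532 with library totals (0.282 to 0.974), so the counting interval left out 1 only under the second scaling. Leaving out untreated replicate 3 or LPS replicate 2 or 3 turned the direction (0.10, 0.16 and 0.18), and leaving out LPS replicate 1 took it to -1.44 (adjusted p = 0.0564).

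In the second table Nr1h3 had 3, 3 and 3 counts after loading and rHDL, 6, 3 and 2 after loading, 2, 6 and 1 after rHDL and 3, 0 and 3 with LPS alone. These 4 groups overlapped and the gene passed no low-count filter there. The ratio for rHDL against LPS alone was 1.02 (0.324 to 3.49), and that for loading against LPS alone was 1.66 (0.561 to 5.45). Such intervals, which cover counting error only, would hide a change of several fold.

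Rxra, the shared partner (chromosome 2, 27677201 to 27763319, plus strand), had 459 countable bases of 5267 (8.7%) over 3 rows. It had 1, 0 and 0 counts with LPS, against 9, 17 and 11 in untreated cells, so every untreated library lay above every LPS library. The ratio of summed counts was 0.0434 (95% counting interval 0.00107 to 0.257) with TMM scaling and 0.0264 (0.000651 to 0.156) with library totals. Rxra did not pass the low-count filter of the test. Without that filter edgeR gave an adjusted p of 0.000128, and DESeq2 gave 0.00297. Of its 38 counts in the first table, 37 lay in the row that starts farthest upstream, in 260 bases that the other rows lack, so they speak for that transcript form and not for the whole gene.

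In the second table Rxra had 0, 0 and 0 counts after loading and rHDL, 3, 3 and 1 after loading, 4, 1 and 0 after rHDL and 1, 2 and 0 with LPS alone. The 7 counts after loading stood against 3 with LPS alone, a ratio of 2.11 (0.481 to 12.6). No fold is given against the group at 0. Receptor transcript levels therefore cannot be set beside the target levels below for any rHDL or loading comparison.

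The 3 targets were expressed in every library, at widely different levels. Per kilobase of countable exon, Apoe stood at 7536 ± 673 CPM with LPS alone in the second table (SD, n = 3), Pltp at 840.0 ± 22.4 and Mylip at 15.9 ± 0.421. Apoe alone took 1.13% to 1.32% of all counts after loading and rHDL, 0.952% to 1.12% after loading, 0.458% to 0.585% after rHDL and 0.838% to 0.952% with LPS alone. The order Apoe, Pltp, Mylip on this per-length scale held in all 6 group means.

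**Figure D2:**
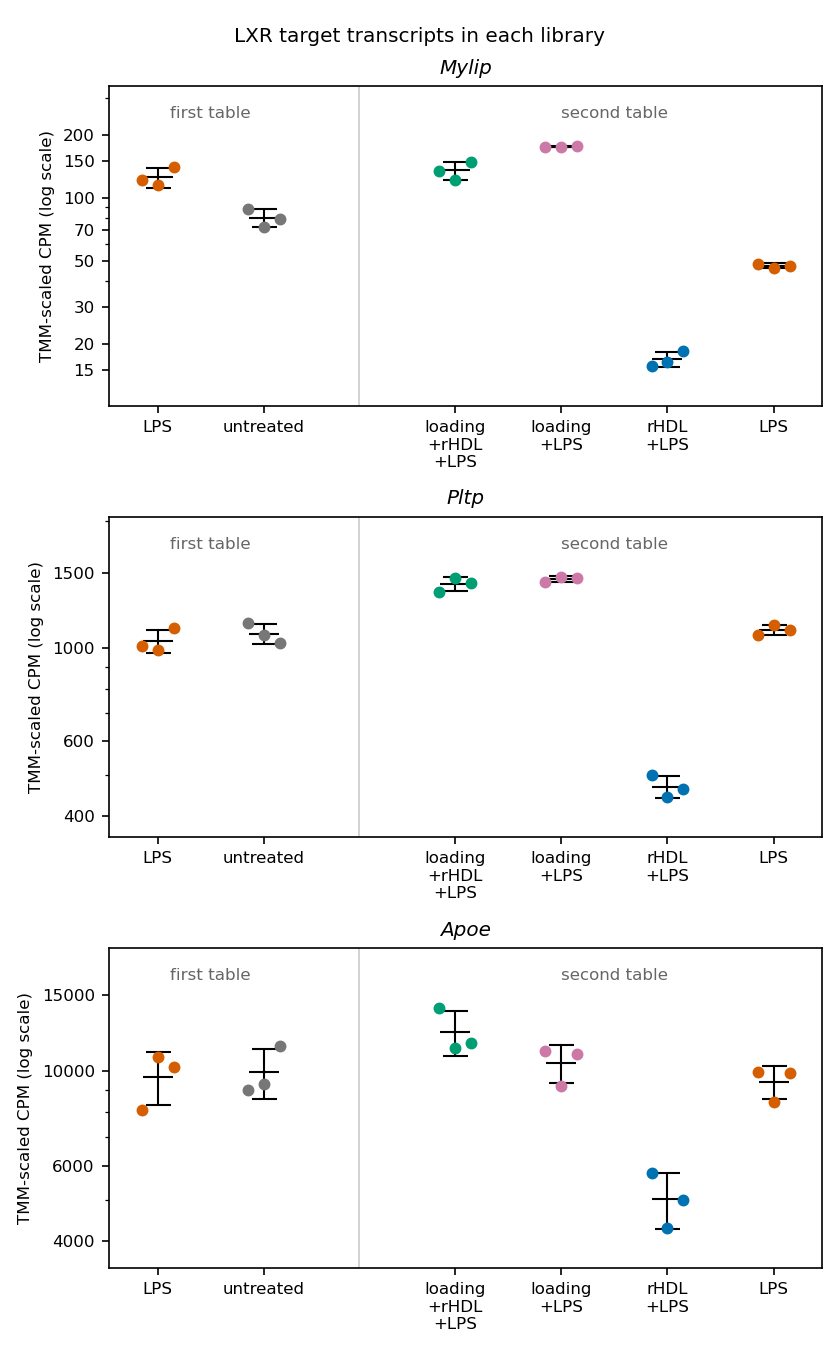
TMM-scaled CPM on a log scale for Mylip, Pltp and Apoe in each library (points), with the group mean and SD (bars, n = 3); the 2 tables are scaled apart and separated by a line. rHDL then LPS is the lowest group of the second table for all 3 genes, and none of its libraries reaches those of another group.

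LPS against untreated cells asks what the inflammatory stimulus itself did to the targets. Mylip was somewhat higher, and Pltp and Apoe did not pass the test. Of the 3 targets 1 was higher, where 35.3% of 9576 genes tested were higher and 37.6% were lower, so a call is common in this comparison. Mylip (chromosome 13, 45389742 to 45411940, plus strand, 7 exons) had 121, 114.5 and 140.5 CPM with LPS, against 88.6, 72.6 and 79.6 CPM in untreated cells. The groups did not overlap, and the log2 fold change was 0.64 ± 0.10 (edgeR, adjusted p = 0.000146). With library totals in place of TMM the value was -0.07 (adjusted p = 0.489), so the direction of Mylip under LPS depends on the scaling. That scaling put the median of all genes at -0.77, against -0.05 with TMM, and 18.7% of its calls were higher in place of 48.4%. The value for Mylip stands above the median of all genes under either.

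Pltp (chromosome 2, 164839518 to 164857708, minus strand, 16 exons) had 1007, 989 and 1114 CPM with LPS, against 1142, 1072 and 1026 CPM in untreated cells. Apoe (chromosome 7, 19696244 to 19699166, minus strand, 4 exons) had 8115, 10740 and 10210 CPM with LPS, against 9006, 9310 and 11430 CPM in untreated cells. Both pairs of groups overlapped. The differences were -0.06 ± 0.08 for Pltp (95% interval -0.24 to 0.12, adjusted p = 0.528) and -0.03 ± 0.13 for Apoe (-0.32 to 0.25, adjusted p = 0.825). With library totals both were called lower, Pltp at -0.78 (adjusted p = 2.98e-06) and Apoe at -0.75 (adjusted p = 0.000141), which is close to the median of all genes under that scaling. Of the 6 macrophage markers tested 3 were higher with LPS (Cd14 at 1.71 ± 0.11, Fcgr1 at 0.62 ± 0.18 and Mertk at 0.33 ± 0.12), while with library totals 1 was higher and 4 lower. Markers of other cells were higher too, at low levels: S100a8 (1.46 ± 0.21), with the neutrophil list at 3.37 to 5 CPM with LPS and 1.49 to 1.63 CPM in untreated cells, and the dendritic marker Xcr1 (1.30 ± 0.32), with its list at 2.08 to 2.53 CPM with LPS and 0.544 to 0.973 CPM in untreated cells. S100a9, Elane, Clec9a and Siglech were at 0 in both groups, and library totals ended the call of Xcr1. The part of marker levels in these results was not tested. In bulk RNA, fewer cells of a type and less transcript per cell cannot be told apart.

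rHDL before LPS, in cells that had not been loaded, lowered all 3 targets. Mylip fell most, to 0.357 of the level with LPS alone, followed by Pltp (0.425) and Apoe (0.532). In this comparison 18.4% of 8965 genes tested were lower and 18.1% higher. Scaling by library totals put the median of all genes at 0.14, against 0.03 with TMM, and 66.3% of its calls were higher in place of 49.5%. The 3 falls were called under both scalings.

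Mylip had 15.7, 16.5 and 18.5 CPM after rHDL, against 48.5, 46.0 and 47.4 CPM with LPS alone, a log2 fold change of -1.49 ± 0.09 (edgeR, adjusted p = 2.31e-08). Pltp had 499.8, 443 and 462 CPM after rHDL, against 1073, 1131 and 1100 CPM with LPS alone (-1.23 ± 0.06, adjusted p = 9.65e-09 by edgeR). The highest rHDL library was far below the lowest library of LPS alone for each gene. Apoe had 5769, 4295 and 4993 CPM after rHDL, against 9933, 8455 and 9893 CPM with LPS alone (-0.91 ± 0.12, adjusted p = 3.47e-05 by edgeR). No library of the rHDL group overlapped with LPS alone for any of the 3, and all 3 calls held when any 1 library was left out. How often all genes separate like this was not counted, here or in the comparisons below.

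Macrophage markers moved in the same comparison. Of 6 markers tested 4 were lower after rHDL: Fcgr1, an Fc receptor (-2.60 ± 0.23), Mertk, a receptor for dying cells that is also an LXR target (-1.34 ± 0.14), Lyz2, lysozyme (-1.11 ± 0.13), and Csf1r, the receptor for the macrophage growth factor (-0.84 ± 0.06). Cd68, a lysosomal membrane protein, was higher (0.51 ± 0.07). Their median was -0.97, against 0.03 over all genes tested. Cd14 did not pass (0.14 ± 0.07). The summed marker level was 9360 to 11700 CPM after rHDL, against 17800 to 19500 CPM with LPS alone. Most of that sum was Lyz2, which averaged 6449 CPM after rHDL and 13910 CPM with LPS alone. The neutrophil marker S100a8 was lower too (-1.78 ± 0.22, with the list at 1.35 to 2.65 CPM after rHDL and 7.17 to 7.56 CPM with LPS alone, and S100a9, Elane and Mpo at 0 in both). The part of these shifts in the fall of the targets was not tested.

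After cholesterol loading the same rHDL treatment had a smaller effect on the 3 targets. Mylip fell slightly, and Pltp and Apoe did not pass. Of the 3 targets 1 was lower, where 0.591% of genes tested were lower and 0.424% were higher. Library totals gave 27.2% of calls higher in place of 41.8%. Mylip had 134.5, 122 and 149 CPM after loading and rHDL, against 175, 174 and 178 CPM after loading alone. The groups did not overlap, the fold was 0.769 and the log2 fold change -0.38 ± 0.08 (edgeR, adjusted p = 0.0251). This call was lost without loading replicate 1, 2 or 3 (adjusted p = 0.0813, 0.105 and 0.121), without loading and rHDL replicate 2 (0.0793), and when the 2 groups were fitted alone (0.133). The direction was kept in each.

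Pltp had 1356, 1467 and 1424 CPM after loading and rHDL, against 1431, 1475 and 1461 CPM after loading alone. The groups overlapped, and the interval of the difference (-0.04 ± 0.06, 95% interval -0.17 to 0.09, adjusted p = 0.857 by edgeR) leaves no room for a fall like the one seen without loading. Apoe had 14040, 11310 and 11590 CPM after loading and rHDL, against 11130, 9192 and 10910 CPM after loading alone. Its groups did not overlap, with the loading and rHDL libraries on top, but the difference did not pass (0.24 ± 0.12, -0.01 to 0.49, adjusted p = 0.452 by edgeR). With the replicate number as a block Apoe was called higher, so this outcome depends on whether libraries are paired. Same-numbered libraries of these groups correlated at 0.184, 0.284 and -0.005, and no other source pairs them. The 6 macrophage markers ranged from -0.17 for Lyz2 to 0.19 for Fcgr1, with a median of -0.02.

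Whether loading altered the rHDL effect was tested as a difference of differences over all 12 libraries. The effect of rHDL was higher after loading than without it for Pltp by 1.19 ± 0.09 on the log2 scale (edgeR, adjusted p = 8.33e-07), for Apoe by 1.15 ± 0.17 (adjusted p = 0.00017) and for Mylip by 1.11 ± 0.11 (adjusted p = 1.11e-05). Thus all 3 targets were higher in this term, where 16.0% of genes tested were higher and 14.2% lower. With library totals the median of all genes was -0.20, against -0.03 with TMM, and 32.4% of calls were higher in place of 53%. The 3 calls stood under both. Of the 6 macrophage markers 4 were higher in this term and 1 (Cd68) lower, with a median of 0.91, and S100a8 was higher (1.65 ± 0.32). Their part in the difference was not tested.

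**Figure D3:**
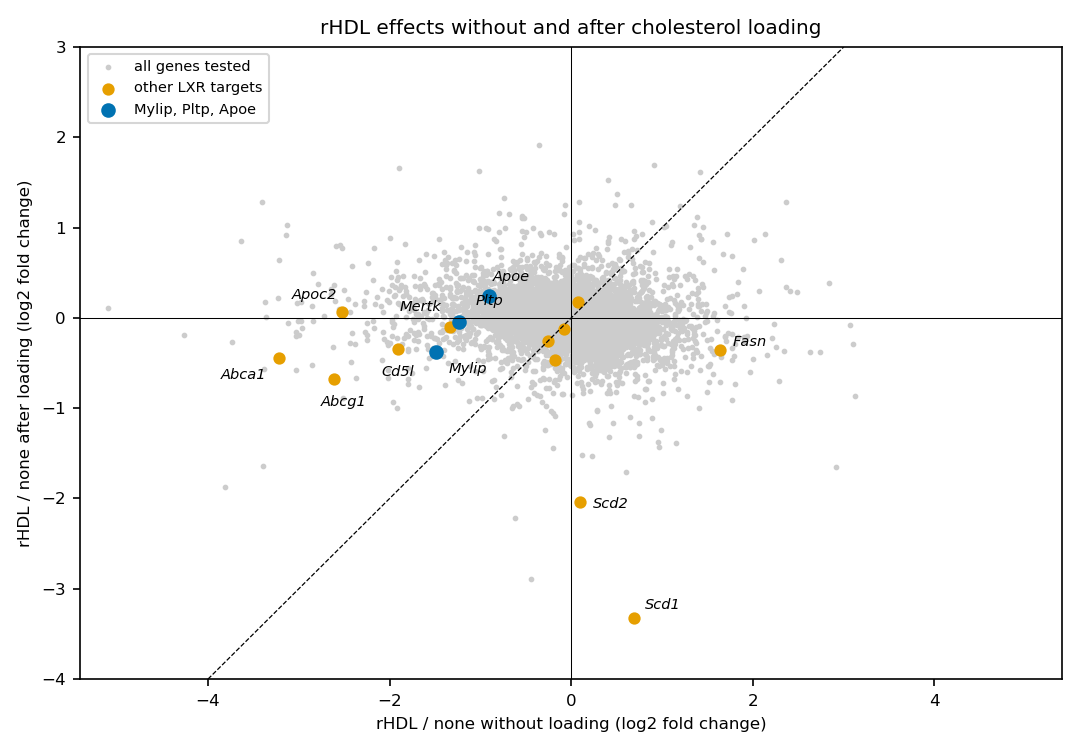
Log2 fold change of rHDL against none without loading (x) and after loading (y), all cells with LPS; grey points are all genes tested, blue the 3 targets, orange other LXR targets, and the dashed line marks equal effects. Mylip (-1.49 and -0.38), Pltp (-1.23 and -0.04) and Apoe (-0.91 and 0.24) all lie left of 0 and above the dashed line.

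Cholesterol loading before LPS, with no rHDL, raised Mylip strongly and Pltp mildly. Of the 3 targets 2 were higher, where 3.99% of genes tested were higher and 4.57% lower. Library totals gave 71.1% of calls higher in place of 46.6%. Mylip had 175, 174 and 178 CPM after loading, against 48.5, 46.0 and 47.4 CPM with LPS alone. That is a 3.71-fold rise (log2 1.89 ± 0.08, adjusted p = 2.8e-09 by edgeR), which ranked 3 of 8965 genes by p. Pltp had 1431, 1475 and 1461 CPM after loading, against 1073, 1131 and 1100 CPM with LPS alone, a 1.32-fold rise (0.40 ± 0.06, adjusted p = 0.00129). Neither gene's groups overlapped.

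Apoe had 11130, 9192 and 10910 CPM after loading, against 9933, 8455 and 9893 CPM with LPS alone. These groups overlapped and the difference did not pass (0.14 ± 0.12, 95% interval -0.11 to 0.40, adjusted p = 0.505 by edgeR). Of the macrophage markers Csf1r was lower (-0.24 ± 0.06), a call that library totals ended while adding Mertk as higher. The neutrophil marker S100a8 was lower (-0.92 ± 0.21, adjusted p = 0.0152 by edgeR), with its list at 3.64 to 4.28 CPM after loading, against 7.17 to 7.56 CPM with LPS alone. The part of these markers in the result was not tested.

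Between cells that had all received rHDL, prior loading raised all 3 targets. The folds were 7.99 for Mylip, 3.02 for Pltp and 2.45 for Apoe. In log2 these are 3.00 ± 0.09 (adjusted p = 1.19e-11 by edgeR), 1.596 ± 0.06 (3.3e-10) and 1.29 ± 0.12 (1.36e-06). In this comparison 18.5% of genes tested were higher and 17.1% lower, and library totals gave 39.4% of calls higher in place of 51.9%, with a median over all genes of -0.10 against -0.01. None of the 3 overlapped between the groups, and such separation was not counted over all genes. Of the macrophage markers 4 were higher and 2 lower, with a median of 0.76, S100a8 was higher (0.73 ± 0.24), and their part was not tested.

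**Figure D4:**
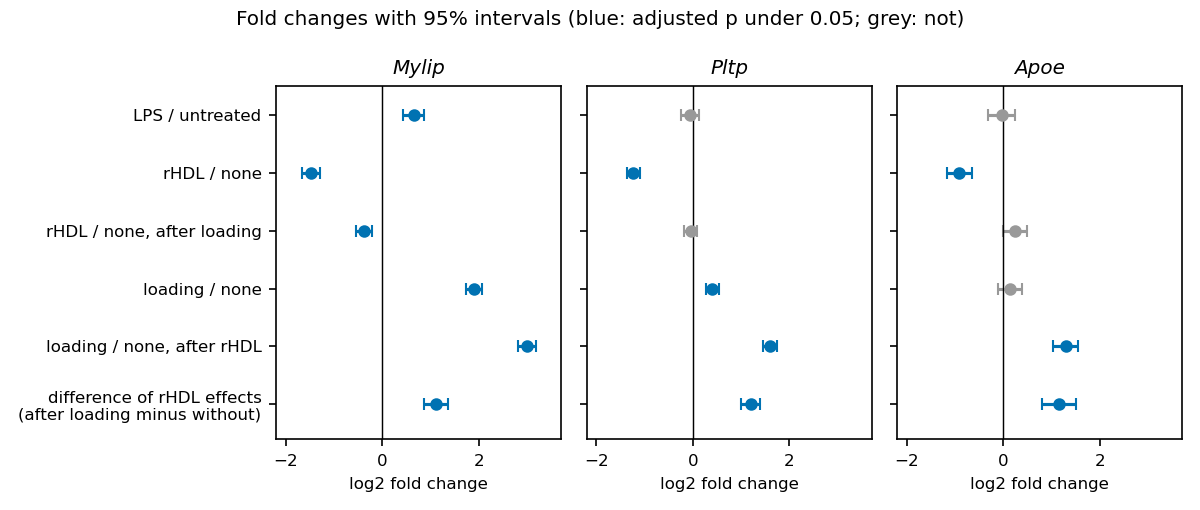
Log2 fold change of Mylip, Pltp and Apoe in the 6 comparisons (points) with 95% intervals (bars); blue marks an adjusted p under 0.05 and grey the rest. rHDL without loading is below 0 for all 3 genes, and loading after rHDL is above 0 for all 3.

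Set side by side, the group means of the second table show different orders. Mylip averaged 135.0 ± 13.4 CPM after loading and rHDL, 176 ± 1.80 after loading, 16.9 ± 1.43 after rHDL and 47.3 ± 1.25 with LPS alone (SD, n = 3 each), so both loaded groups stood above both unloaded ones. Pltp averaged 1416 ± 56.0 CPM after loading and rHDL, 1456 ± 22.5 after loading, 468 ± 29.0 after rHDL and 1101 ± 29.0 with LPS alone. Its 2 loaded groups did not differ beyond their spread, and both lay above the rest. Apoe averaged 12313 ± 1502 CPM after loading and rHDL, 10411 ± 1061 after loading, 5019 ± 737 after rHDL and 9427 ± 842 with LPS alone. Here loading alone and LPS alone did not differ beyond their spread.

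Cells given loading and rHDL had 2.85 times the Mylip level with LPS alone, 1.29 times the Pltp level and 1.31 times the Apoe level. These ratios of means compare groups that differ in both treatments and were not tested.

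The authors' deposited table for rHDL without loading lists the 3 targets among its 1609 rows, with log2 fold changes of -1.50 for Mylip, -1.25 for Pltp and -0.92 for Apoe. The authors' deposited table for rHDL after loading lists none of the 3. The table without loading holds no adjusted p above 0.0497, so it is a selection of genes. If the other was cut likewise, absence from it does not show that a gene was unchanged.

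Of 14 other LXR targets listed, 12 could be tested. After rHDL without loading 6 were lower and 2 higher, where 18.4% of all genes tested were lower and 18.1% higher. Their median was -0.22 against 0.03 over all genes. The lower ones were Abca1, Abcg1, Apoc2, Cd5l, Mertk and Lpl, among them the exporters Abca1 (-3.21 ± 0.13) and Abcg1 (-2.62 ± 0.08) and Cd5l, a secreted survival factor of macrophages (-1.91 ± 0.15). Apoc2, the cofactor of lipoprotein lipase whose gene lies in the same cluster as Apoe, was at 3.30 ± 0.656 CPM after rHDL, against 19.2 ± 6.15 CPM with LPS alone (-2.53 ± 0.25, adjusted p = 3.32e-06 by edgeR). The 2 higher ones, a number near the share over all genes, were Fasn, fatty acid synthase (1.64 ± 0.24), and Scd1, a fatty acid desaturase (0.69 ± 0.21). With library totals 5 were lower and 3 higher, Lpl losing its call and Smpdl3a gaining one.

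After loading, 4 of the 12 were lower with rHDL: Scd1 (-3.32 ± 0.18), Scd2 (-2.04 ± 0.30), Abcg1 (-0.68 ± 0.07) and Lpcat3, a phospholipid-remodelling enzyme (-0.47 ± 0.08). Over all genes tested 0.591% were lower in that comparison. Apoc2 was at 0.07 ± 0.20 there (adjusted p = 0.924). In the difference of the rHDL effects 5 were higher, namely Abca1 (2.77 ± 0.16), Apoc2 (2.60 ± 0.32), Abcg1 (1.94 ± 0.11), Cd5l (1.56 ± 0.20) and Mertk (1.23 ± 0.20), as for Mylip, Pltp and Apoe. The 3 lower ones were Scd1 (-4.01 ± 0.28), Scd2 (-2.13 ± 0.40) and Fasn (-1.99 ± 0.34), which make or desaturate fatty acids. Over all genes tested 16.0% were higher and 14.2% lower in this difference. Loading alone raised 6 of the 12, where 3.99% of all genes tested were higher. By fold change Scd1 (3.13 ± 0.18) and Abcg1 (2.58 ± 0.08) stood in front of Mylip. With LPS against untreated cells 2 of the 12 were higher, below the share over all genes (35.3%), and 5 were lower, near that share (37.6%). With library totals, which put the median of all genes at -0.77, 11 were lower.

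Genes that work with the receptors could be read where the receptors could not. Of 14 nuclear receptors that pair with or resemble RXR and LXR, 6 could be tested, and after rHDL without loading Ppard, a fatty acid sensor that dimerises with RXR, was higher (0.98 ± 0.19, adjusted p = 0.000926 by edgeR). Of 19 coregulators 15 could be tested there. Hdac3, the histone deacetylase of the NCoR corepressor complex, was higher (0.25 ± 0.08) and the coactivator acetylase Ep300 was lower (-0.54 ± 0.12). Ppard, Hdac3 and Ep300 were the only calls on these lists, where 18.1% of all genes tested were higher and 18.4% lower. Neither list was thus called more often than genes in general. After loading the smallest adjusted p among the coregulators was 0.574 (Ncor1) and that among the nuclear receptors was 0.25 (Nr4a1). With LPS against untreated cells, where 37.6% of all genes tested were lower and 35.3% higher, 5 of the 6 nuclear receptors were lower, among them Pparg (-2.57 ± 0.22), and Rarg was higher (1.46 ± 0.17).

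Partners of the target proteins were measured in part. The LDL receptor gene itself, the main substrate of MYLIP, has no exon base in only 1 row and cannot be read. Of the 4 testable genes on the list of MYLIP substrates and ubiquitin partners, Lrp8, another lipoprotein receptor that MYLIP targets, was higher after rHDL, at 2.13 ± 0.318 CPM against 0.658 ± 0.403 CPM with LPS alone (1.64 ± 0.41, adjusted p = 0.00599 by edgeR). Lrp8 was near the floor: its lowest rHDL library had 1.77 CPM, and no library of the other groups in the second table passed 0.999 CPM. It passed the low-count filter only through the group where it was high, so its call is a description. Ube2d1, a ubiquitin-conjugating enzyme of the family MYLIP works with, was lower (-0.32 ± 0.08). Of the 4 testable APOE receptors Lrp8 was higher, which is the same call counted again. Sorl1 (-0.63 ± 0.15) and Sdc1 (-0.30 ± 0.09) were lower, the call of Sdc1 being lost with library totals. Over all genes tested 18.1% were higher and 18.4% lower in this comparison.

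The genes most like each target over the 12 libraries of the second table were found among 5904 by Pearson's r of log2 CPM. The libraries share their groups and their scaling, so r is given as a description. Mylip was closest to Abcg1 (r = 0.996), followed by Jade2 (0.984) and Pdlim4 (0.984). Pltp was closest to Plat (0.992), Abca1 (0.992) and Cfp (0.992). For Apoe these were Cp (0.989), Msr1 (0.985) and Ift57 (0.985). Among the targets themselves r was 0.943 for Mylip with Pltp and for Pltp with Apoe, and 0.875 for Mylip with Apoe.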

How the data were processed

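RNA-seq was made from 18 libraries of mouse macrophages in 6 groups of 3. Per the submitters' processing notes, the authors used cutadapt, HISAT2, featureCounts of Subread and DESeq2 with mm10, in versions not stated there. Both deposited count tables list whole-number counts, not normalized, for 32850 transcript rows under 24059 symbols. Of 6698 rows that share every exon base with another row, 1 had a count, so reads in several rows were left out. The 98 rows whose own bases depend on strand had no count, so strand was ignored. The deposited comparison tables hold the authors' log2 fold changes and adjusted p-values.

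Counts were summed per symbol and tested with edgeR 4.0.16 in R 4.3.3 (limma 3.58.1 installed with it): filterByExpr with minimum count 10, TMM, quasi-likelihood F tests, and Benjamini-Hochberg adjustment over all 9576 genes of the first table or 8965 of the second, called under 0.05. The 12 libraries of the second table shared 1 fit, and the 6 of the first were fitted apart. A value after ± is an SE for a log2 fold change and an SD for CPM. Count ratios have exact 95% intervals for counting error. Depth was 9464916 to 16835472 counts per library. The fit was tested on simulated data.

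The members and lists were chosen with earlier results of these data known. Named genes were the 6 genes followed, the 3 lowest p per list for rHDL without loading, those that spell out a count of 5 or fewer, and the 3 genes most correlated with each target (mean log2 CPM of at least 3, prior count 2). Other list members were named after their values were seen. Alternatives were DESeq2 1.42.0, its size factors, library totals, other filters, rows tested singly, a replicate block, 2-group fits and leaving out each library. Promoter sequences are RefSeq's, of GRCm38.p6, and all 6 genes matched. A further gene that the rule takes is not reported here.

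Replicate numbers were checked by the correlation of same-numbered libraries' deviations from their group means. Only in the comparison of loading after rHDL were all 3 over 0.1 (0.436, 0.283 and 0.177), and no other source pairs the libraries.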

Additional observations from a re-analysis of the deposited data

Results flagged for a closer look

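All 3 targets answered rHDL differently in loaded and in unloaded cells, by the edgeR test of the difference itself (effect after loading minus effect without, log2 scale, 12 libraries). The differences were 1.11 for Mylip, 1.19 for Pltp and 1.15 for Apoe, with adjusted p of 1.11e-05, 8.33e-07 and 0.00017. By the same test 16.0% of all genes were higher and 14.2% lower. Every library of rHDL alone lay below every library of LPS alone for these 3 genes, a separation that was not counted over all genes. After loading, all 3 Mylip libraries with rHDL lay below those without, all 3 Apoe libraries lay above, and Pltp libraries overlapped.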

How the results depend on the processing

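Leaving out a library kept the 3 falls after rHDL, the 3 differences between rHDL effects and the 3 rises with loading after rHDL; members called lower ranged from 0 to 1 for LPS and from 0 to 1 for rHDL after loading, and genes called from 30 to 123 for rHDL after loading and from 350 to 594 for loading, against 91 and 768 with all libraries. With LPS, Nr1h3 ranged from -1.4419 to 0.1826 and Apoe from -0.1028 to 0.0823. For LPS, edgeR called 0 members lower, DESeq2 and no filter called 1 (Rxra), and library totals called 2 lower and 0 higher. Mylip with LPS was at -0.0742 with library totals, and Apoe with LPS at 0.0056 with DESeq2 and 0.0079 with its size factors. For rHDL after loading, 170 genes were called with DESeq2, 176 with no filter and 42 in the fit of 2 groups, where 0 members were lower. That fit called 1216 genes for loading. The causes were not tested. The CPM filter and single rows changed no call of a member.

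With the replicate number as a block, genes called were 486 for rHDL after loading and 1651 for loading, and 1 member was higher for rHDL after loading (Apoe, 0.24, adjusted p = 0.0183). Same-numbered libraries had correlations of -0.03 to 0.436 in the second table (13 of 18 over 0.1) and -0.077 to 0.074 in the first, and 8 of 12 and 1 of 6 libraries matched best with their own number throughout. The block changed no other call of a member.

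The receptor genes, with 0.2% to 16.1% of their bases countable, had 0 to 17 counts per library, so counting error limits what they can show.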

Other observations

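Both tables hold a group given LPS with no pretreatment, and their levels differed for some targets. Mylip averaged 125 CPM in the LPS group of the first table and 47.3 CPM in that of the second, and Abcg1 599 and 133.5 CPM. Pltp (1037 and 1101 CPM) and Apoe (9688 and 9427 CPM) were closer. The tables were scaled apart, so these levels were not tested against each other.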
